A study of Homo sapiens with 18 samples.

Results

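The genes described here are 10 regulators of mRNA stability: ZFP36, ZFP36L1, ZFP36L2, ZC3H12A, ZC3H12C, KHSRP, ELAVL1, HNRNPD, KHDRBS1 and KHDRBS3. Each was taken as the transcript cluster, the array's unit for a gene, that carries its symbol and no other, and each of the 10 has exactly 1 such cluster. They are 10 of the 18377 genes that have a transcript cluster of their own on the array. All 10 passed the filter on low signal, a mean log2 signal above 6.193. Membership was set by gene name.

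Many short-lived mRNAs, among them those of cytokines and early response genes, carry AU-rich elements in the 3′ untranslated region. ZFP36 (tristetraprolin), ZFP36L1 and ZFP36L2 are zinc-finger proteins that bind these elements and recruit deadenylases, which shorten the poly(A) tail and start decay. ZC3H12A (Regnase-1) is an endoribonuclease that cleaves inflammatory mRNAs at stem-loops, and ZC3H12C is a related protein of the same family. KHSRP promotes decay of AU-rich mRNAs, HNRNPD (AUF1) mostly does so too, and ELAVL1 (HuR) binds the same elements and stabilises the mRNA. KHDRBS1 (Sam68) and KHDRBS3 are RNA-binding proteins of the STAR family, best known for regulating splicing.

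The RNA came from ECV304 cells, a human line labelled as endothelial with mixed endothelial and epithelial features, and known from later work to derive from a bladder carcinoma. Cells grown in 10% serum were held in 1% serum for 24 h. Interleukin-1β at 100 IU/ml was then given to every sample, alone with medium (the control) or together with aminaphtone at 6 µg/ml, a naphthohydroquinone derivative used in microvascular disease. RNA was taken at 1, 3 or 6 h. Treatment and time make 6 groups, each measured on 3 arrays. No sample went without interleukin-1β, so a difference between times cannot be told apart from time in culture or in low serum. In these bulk samples, a change in the number of cells of a kind and a change in RNA per cell cannot be told apart either. Aminaphtone was tested at a single dose in a single line.

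Of the defining markers of endothelium, 6 of 12 passed the filter on low signal, while PECAM1, VWF, KDR, TEK, ERG and EMCN did not (mean log2 from 4.57 for EMCN to 6.03 for VWF). All 13 measured epithelial and urothelial markers passed it, with keratins KRT7, KRT8 and KRT18 at mean log2 of 11.36, 12.38 and 11.75. The rest of these ran from 6.51 for UPK3A to 8.64 for PPARG. The endothelial markers that passed covered a similar range, from 6.40 for TIE1 to 8.82 for ESAM. Leukocyte markers passed in 1 of 4 and fibroblast markers in 2 of 4. The cells are therefore called ECV304 here, not endothelial cells. The 3 control arrays at 1 h differed most among themselves, with correlations between 0.889 and 0.963, against at least 0.970 within every other group. These were taken over the annotated transcript clusters that passed the filter on low signal. Results against the 1 h controls are given with and without them where it matters. Values are log2 signals, so a difference of 1 is a 2-fold change. Levels of the members are compared between groups for 1 gene and not between genes. Only the marker signals above are set side by side across genes, as a rough description.

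Interleukin-1β is known to act through transcription as well as through mRNA stability, so the promoters of the 4 genes with the largest changes over time are shown. They come from RefSeq on build GRCh38.p14 and cover the 250 bases before the annotated start, 5′ to 3′ on the gene's strand. Entries were used for 7 of the 10 members. The search for members left out entries on a chromosome that the shares over all windows did not leave out. Capitals mark TATAAA, the TATA box, and GGGCGG, the GC box, on either strand (CCGCCC is the GC box read on the other strand). The windows are chr19:39406597-39406846 (+) for ZFP36, chr14:68796244-68796493 (-) for the first of 2 listed starts of ZFP36L1, chr1:37474330-37474579 (+) for ZC3H12A, and chr11:110093142-110093391 (+) for the first of 2 listed starts of ZC3H12C.
ZFP36: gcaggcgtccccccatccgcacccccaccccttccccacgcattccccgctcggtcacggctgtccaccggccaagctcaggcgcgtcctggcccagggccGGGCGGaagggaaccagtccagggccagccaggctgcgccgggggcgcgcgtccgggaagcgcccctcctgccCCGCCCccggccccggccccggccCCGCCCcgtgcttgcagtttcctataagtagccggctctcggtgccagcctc
ZFP36L1: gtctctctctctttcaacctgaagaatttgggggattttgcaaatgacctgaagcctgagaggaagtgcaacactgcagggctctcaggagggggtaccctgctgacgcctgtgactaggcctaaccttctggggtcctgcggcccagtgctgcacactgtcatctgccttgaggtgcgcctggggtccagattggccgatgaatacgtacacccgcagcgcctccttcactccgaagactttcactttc
ZC3H12A: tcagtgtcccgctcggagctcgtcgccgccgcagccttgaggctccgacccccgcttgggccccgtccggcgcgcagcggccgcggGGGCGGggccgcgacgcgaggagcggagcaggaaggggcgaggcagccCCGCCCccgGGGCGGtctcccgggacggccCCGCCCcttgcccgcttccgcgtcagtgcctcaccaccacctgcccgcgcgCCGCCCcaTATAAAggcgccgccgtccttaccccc
ZC3H12C: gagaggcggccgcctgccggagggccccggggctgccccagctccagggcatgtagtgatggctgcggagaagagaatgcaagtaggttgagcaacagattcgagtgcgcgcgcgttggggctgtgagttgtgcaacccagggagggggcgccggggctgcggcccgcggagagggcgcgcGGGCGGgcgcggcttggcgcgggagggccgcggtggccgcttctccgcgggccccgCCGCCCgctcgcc
The windows of ZFP36, ZC3H12A and ZC3H12C are 76.4%, 78.8% and 75.6% G or C, against a median of 58.0% over all 35116 promoter windows, and that of ZFP36L1 is 56.4%. The GC box occurs 3 times at ZFP36, 5 times at ZC3H12A and 2 times at ZC3H12C, and not at ZFP36L1; 42.6% of all windows hold it at least once. ZC3H12A alone among these 4 windows holds a TATAAA, at -27 to -22 from the start, a motif found in 10.7% of all windows. The AP-1 motif TGANTCA, held by 6.57% of windows, matches in none of the windows of the 7 members. The cyclic AMP response half-site TGACG, held by 21.2% of windows, matches at the starts shown of ZFP36L1 and ZC3H12A and not at those of ZFP36 and ZC3H12C. A loose form of the NF-κB motif, GGGNNNNNCC, matches in all 4 windows shown and in 54.4% of all windows; in ZFP36, ZC3H12A and ZC3H12C some of its matches overlap a GC box. Such matches describe letters in these windows, and binding was not measured.

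ZFP36 and ZFP36L1 mRNA fell from 1 h onward under both treatments. With interleukin-1β alone, ZFP36 read 11.74, 12.31 and 12.07 on the 3 arrays at 1 h, 10.08, 10.88 and 10.16 at 3 h, and 9.40, 9.52 and 9.30 at 6 h. The 3 times form separate ranges that step down. The mean was 12.04 ± 0.285 (SD, n = 3) at 1 h and 9.41 ± 0.111 at 6 h, a difference of -2.63 (SE 0.218; 95% interval -3.09 to -2.17), or 6.20-fold lower (limma, adjusted p = 5.7e-07). Most of it was present at 3 h, when ZFP36 was 3.18-fold below its 1 h level (-1.67; limma, adjusted p = 9.87e-05). The further difference from 3 to 6 h was -0.96, with limma's adjusted p at 0.0569. With aminaphtone, ZFP36 read 11.44, 11.47 and 11.62 at 1 h, 10.31, 10.92 and 10.08 at 3 h, and 9.71, 9.57 and 9.33 at 6 h. These ranges also step down without overlap, and the fall from 1 to 6 h was 3.93-fold (-1.97, interval -2.43 to -1.51; limma, adjusted p = 1.36e-05).

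ZFP36L1 read 12.79, 12.86 and 12.87 with interleukin-1β alone at 1 h, 11.83, 11.97 and 11.82 at 3 h, and 11.83, 11.75 and 11.59 at 6 h. The 1 h arrays lie apart from all later ones, and those at 3 and 6 h overlap. Its fall was 1.95-fold by 3 h (-0.96, SE 0.114; limma, adjusted p = 3.82e-05) and 2.17-fold by 6 h (-1.11; adjusted p = 5.93e-06). With aminaphtone it read 12.47, 12.34 and 12.56 at 1 h, 12.12, 12.21 and 11.83 at 3 h, and 11.99, 11.83 and 11.78 at 6 h. The fall from 1 to 6 h was 1.51-fold there (-0.59; limma, adjusted p = 0.00165). Its fall by 3 h was 1.32-fold (-0.40; limma, adjusted p = 0.0313), and that call was lost without any 1 of 4 arrays: aminaphtone 1 h replicates 1 and 3 (adjusted p = 0.113 and 0.126) and aminaphtone 3 h replicates 1 and 3 (0.0713 and 0.139). A fit on the 6 arrays of this comparison alone lost it as well (0.0545).

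ZFP36L2 had its lowest mean at 3 h. With interleukin-1β alone it read 10.26, 10.25 and 10.70 at 1 h, 10.12, 9.45 and 9.81 at 3 h, and 10.28, 10.46 and 10.01 at 6 h. The 3 h arrays lie below the 1 h arrays, while 1 h and 6 h overlap. Between 1 and 3 h it fell 1.53-fold (-0.61, SE 0.167; limma, adjusted p = 0.0234). That call rests on single arrays: the adjusted p was 0.116 once control 1 h replicate 3 was dropped, 0.0852 and 0.0636 once control 3 h replicates 2 and 3 were dropped in turn, and 0.254 in a fit on the 6 arrays concerned. At 6 h the difference from 1 h was -0.15 (interval -0.51 to 0.20). With aminaphtone ZFP36L2 stayed between 10.08 and 10.49 on all 9 arrays, with no difference between times past the threshold.

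**Figure D1:**
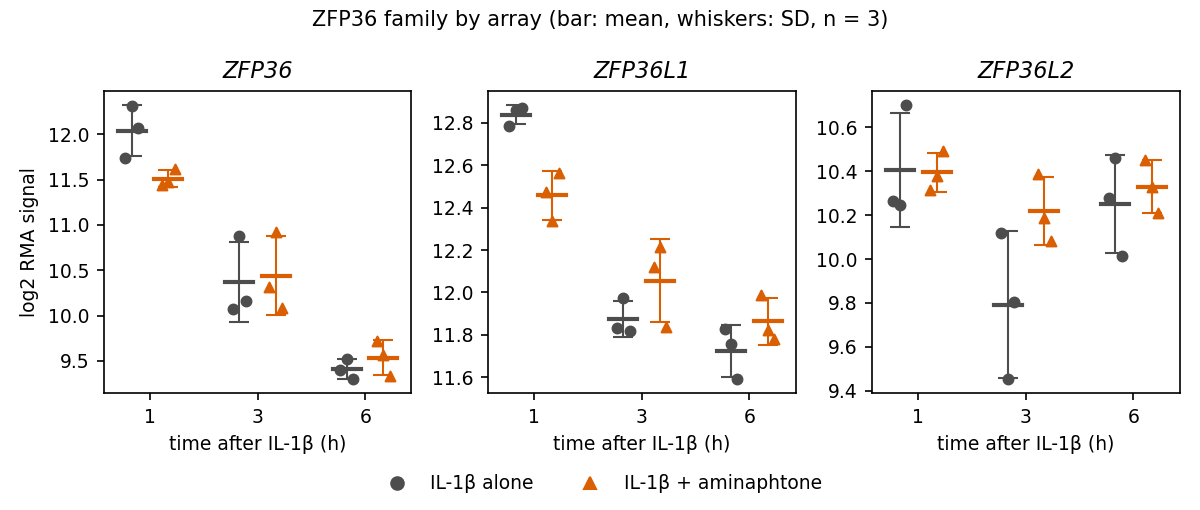
Log2 signal of ZFP36, ZFP36L1 and ZFP36L2 on each of the 18 arrays, by treatment and time in hours; points are arrays (circles for interleukin-1β alone, triangles for aminaphtone), bars are means and whiskers are SD (n = 3). ZFP36 steps down from 12.04 to 9.41 with interleukin-1β alone and from 11.51 to 9.54 with aminaphtone.

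From 1 to 6 h with interleukin-1β alone, ZC3H12A fell and ZC3H12C rose. ZC3H12A read 11.02, 11.66 and 11.67 with interleukin-1β alone at 1 h, 10.95, 11.75 and 11.20 at 3 h, and 10.36, 10.24 and 10.47 at 6 h. The 6 h arrays lie below all arrays of 1 and 3 h, which overlap each other. From 1 to 6 h it fell 2.13-fold (-1.09, SE 0.224, interval -1.57 to -0.62; limma, adjusted p = 0.00218), and at 3 h it stood at -0.15 from its 1 h level (interval -0.63 to 0.32). The step from 3 to 6 h was -0.94, with limma's adjusted p at 0.0713. With aminaphtone it read 10.81, 10.96 and 11.34 at 1 h, 11.36, 11.95 and 11.19 at 3 h, and 10.84, 10.77 and 10.82 at 6 h. There the 1 h arrays overlap those of both later times, the 3 h arrays lie above the 6 h arrays, and the gene passed no comparison between times. Its difference was 0.47 from 1 to 3 h (interval -0.01 to 0.94; limma, adjusted p = 0.235) and -0.23 from 1 to 6 h (interval -0.70 to 0.25; 0.541).

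With interleukin-1β alone, ZC3H12C read 7.89, 6.48 and 6.95 at 1 h, 8.90, 8.71 and 8.73 at 3 h, and 8.31, 8.40 and 8.76 at 6 h. Every later array lies above every 1 h array, and the 1 h controls spread widely (SD 0.717), with replicate 1 far above the other two. It rose 3.18-fold by 3 h (1.67, SE 0.285, interval 1.07 to 2.27; limma, adjusted p = 0.0011) and stood 2.61-fold above 1 h at 6 h (1.38; adjusted p = 0.00229). With aminaphtone it read 7.92, 7.62 and 7.65 at 1 h, 8.29, 8.35 and 9.04 at 3 h, and 8.15, 8.69 and 8.95 at 6 h. The later arrays again lie above those of 1 h, and the rise by 6 h was 1.82-fold (0.86; limma, adjusted p = 0.0465). This last call was lost in 14 of the 18 fits that leave out 1 array (adjusted p up to 0.181, without aminaphtone 6 h replicate 3) and with each array centred on its median (0.0713). The difference at 3 h was 0.83 with aminaphtone (limma, adjusted p = 0.077).

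The changes of the ZC3H12 genes against the 1 h controls depend on which of those controls are used. Without both control 1 h replicates 2 and 3, the rise of ZC3H12C was 0.89 by 3 h (limma, adjusted p = 0.0662) and 0.60 by 6 h (0.191), and the fall of ZC3H12A by 6 h was -0.66 (0.141). All 3 calls held in each of the 18 fits that leave out a single array. The falls of ZFP36 and ZFP36L1 with interleukin-1β alone held there and also without both replicates.

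**Figure D2:**
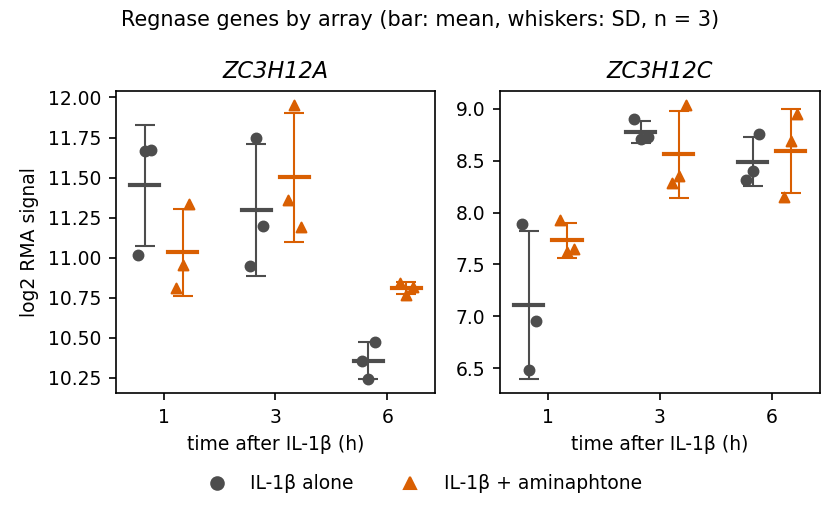
Log2 signal of ZC3H12A and ZC3H12C on each of the 18 arrays, by treatment and time in hours; points are arrays (circles for interleukin-1β alone, triangles for aminaphtone), bars are means and whiskers are SD (n = 3). ZC3H12A is lowest at 6 h with interleukin-1β alone (10.36), and ZC3H12C is lowest at 1 h (7.11), where its 3 control arrays are widely spread.

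The AU-rich binding proteins of the KH and RRM classes showed small differences over time. ELAVL1 lay between 8.30 and 8.68 on all 18 arrays, and its difference from 1 to 6 h with interleukin-1β alone was 0.11 (interval -0.12 to 0.33). HNRNPD lay between 10.89 and 11.49, with a difference of 0.00 (interval -0.25 to 0.25). KHSRP lay between 10.26 and 11.11, with a difference of -0.19 (interval -0.53 to 0.16); its highest array was control 1 h replicate 2. For KHDRBS1 the array values ran from 9.32 to 10.26 and the difference was 0.36 (limma, adjusted p = 0.131); the lowest array was again control 1 h replicate 2. None of these 4 genes passed the threshold between any times under either treatment. HNRNPD came nearest, at -0.33 from 1 to 6 h with aminaphtone (interval -0.58 to -0.08; limma, adjusted p = 0.0634), where the 6 h arrays (11.02, 10.94 and 11.18) lie below the 1 h arrays (11.49, 11.24 and 11.41).

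With aminaphtone, KHDRBS3 was higher at 3 and 6 h than at 1 h, with its highest mean at 3 h. With interleukin-1β alone it read 8.44, 8.54 and 8.72 at 1 h, 8.67, 8.83 and 8.93 at 3 h, and 8.78, 8.81 and 8.83 at 6 h. With aminaphtone it read 8.60, 8.61 and 8.70 at 1 h, 9.56, 9.39 and 9.44 at 3 h, and 9.18, 9.14 and 9.30 at 6 h. At 3 and 6 h all aminaphtone arrays lie above all control arrays, and at 1 h the treatments overlap. With aminaphtone KHDRBS3 rose 1.77-fold from 1 to 3 h (0.83, interval 0.61 to 1.04; limma, adjusted p = 5.59e-05) and stood 1.49-fold above 1 h at 6 h (0.57; adjusted p = 0.000967). From 3 to 6 h with aminaphtone the difference was -0.26 (interval -0.47 to -0.04), with limma's adjusted p at 0.374. With interleukin-1β alone the differences from 1 h were 0.25 at 3 h and 0.24 at 6 h (limma, adjusted p = 0.122 and 0.0929).

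**Figure D3:**
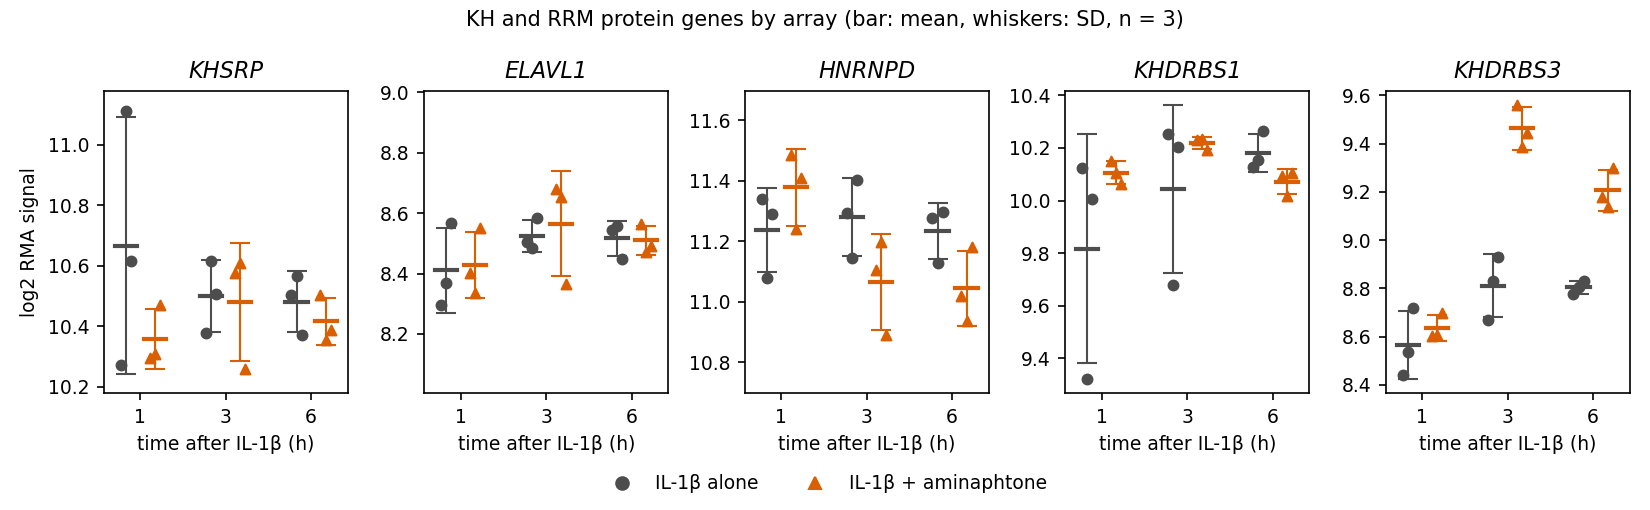
Log2 signal of KHSRP, ELAVL1, HNRNPD, KHDRBS1 and KHDRBS3 on each of the 18 arrays, by treatment and time in hours; points are arrays (circles for interleukin-1β alone, triangles for aminaphtone), bars are means and whiskers are SD (n = 3). Aminaphtone and control separate for KHDRBS3 at 3 h (9.46 against 8.81) and 6 h (9.21 against 8.80), and for KHDRBS1 at 6 h (10.07 against 10.18).

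Between times, several of the 10 genes passed the threshold in each comparison with 1 h. With interleukin-1β alone, 3 were lower and 1 higher at 3 h, where 7.98% of the 15796 transcript clusters tested were lower and 4.81% higher. At 6 h against 1 h the counts were again 3 lower and 1 higher, against 15.2% lower and 11.3% higher over all tested. With aminaphtone, 2 were lower and 1 higher at 3 h, against 5.45% and 5.09%. At 6 h against 1 h, 2 were lower and 2 higher, against 10.7% and 6.01%. From 3 to 6 h, none of the 10 passed in limma, with 0.513% of all transcript clusters called with interleukin-1β alone and 0.266% with aminaphtone. ZFP36, ZC3H12A and ZFP36L2 had an unadjusted p under 0.05 in the first, and ZFP36, ZC3H12A and KHDRBS3 in the second. The share of all transcript clusters under that unadjusted limit was not counted for these comparisons. The median difference over the 10 genes from 1 to 6 h was -0.08 with interleukin-1β alone and -0.05 with aminaphtone, against -0.01 and 0.02 over all tested. Within a treatment, the comparisons of 3 h and of 6 h share the same 1 h arrays.

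**Figure D4:**
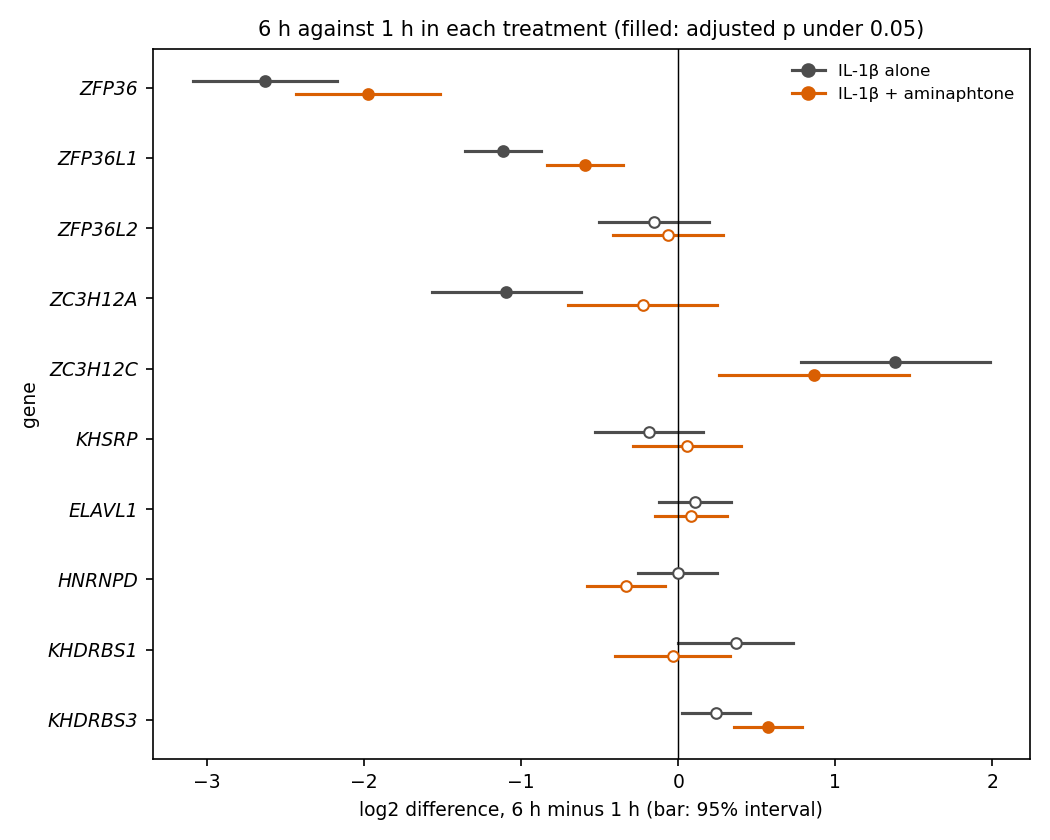
Log2 difference of the 10 genes between 6 h and 1 h, for each treatment, from the limma fit over 18 arrays; bars are 95% intervals, and filled points have an adjusted p under 0.05. ZFP36 has the largest fall among the 10 in both treatments (-2.63 and -1.97) and ZC3H12C the largest rise (1.38 and 0.86).

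In the main fit, without pairing by replicate number, KHDRBS3 at 3 h was the only member past the threshold between treatments at the same time. It was 1.57-fold higher with aminaphtone (0.65, SE 0.102, interval 0.44 to 0.87; limma, adjusted p = 0.0359), and 0.038% of all transcript clusters tested were called in that comparison. At 6 h it stood 0.40 higher (interval 0.19 to 0.62; unadjusted p = 0.00109, limma's adjusted p = 0.379), and no member was called, with 0.108% called over all tested. At 1 h the difference was 0.07. Averaged over the 3 times KHDRBS3 was 1.30-fold higher (0.38, SE 0.0589, interval 0.25 to 0.50; limma, adjusted p = 0.0065), the only member called of 10, with 0.829% called over all tested. The average held in each alternative run for it, including each left-out array, with a difference of 0.31 to 0.42 and an adjusted p of at most 0.0253. The 3 h call did not: it held in 4 of the 18 fits that leave out an array, and its adjusted p reached 0.262 without aminaphtone 3 h replicate 1 (0.60) and 0.221 without control 3 h replicate 1 (0.58). In a fit on the 6 arrays of 3 h alone it was 0.258.

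At 1 h, 0 of the 10 genes passed the threshold in limma between aminaphtone and control, where 0.0886% of all transcript clusters tested were called. The unadjusted p was under 0.05 for ZFP36, ZFP36L1 and ZC3H12C, and for 30.8% of all transcript clusters tested, so this count is near the share over the array. ZFP36 stood at -0.53 (interval -0.99 to -0.07; limma, adjusted p = 0.144), ZFP36L1 at -0.38 (interval -0.62 to -0.14; 0.139) and ZC3H12A at -0.42 (interval -0.89 to 0.06; 0.194). For ZFP36 and ZFP36L1 all 3 aminaphtone arrays lie below all 3 control arrays. ZC3H12C stood at 0.62 (limma, adjusted p = 0.158). The replicate numbers are taken to pair the arrays of this comparison, and with the replicate as a block 3 genes were called, ZFP36, ZFP36L1 and ZC3H12A (limma, adjusted p = 0.0369, 0.0396 and 0.0454), with 15.6% of all transcript clusters called by that rule. Without control 1 h replicate 1, 6 genes were called, with 53.9% of all transcript clusters called in that fit: ZFP36 at -0.68 (limma, adjusted p = 0.0218), ZFP36L1 at -0.41 (0.0147), ZC3H12A at -0.63 (0.0246), and also ZC3H12C, KHSRP and KHDRBS1. A share that large over the whole array says little about these 6 genes in particular. Without both control 1 h replicates 2 and 3, no member was called, and these values moved toward 0 or past it: ZFP36 stood at -0.23, ZFP36L1 at -0.33, ZC3H12A at 0.02, ZC3H12C at -0.16, KHSRP at 0.09 and KHDRBS1 at -0.02.

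In the main fit, without pairing by replicate number, no other difference between treatments passed the threshold. At 6 h ZC3H12A stood 0.45 higher with aminaphtone, with no overlap between the treatments (interval -0.02 to 0.93; unadjusted p = 0.0603, limma's adjusted p = 1). KHDRBS1 stood at -0.11 at 6 h (interval -0.48 to 0.25), also with no overlap between the treatments. The share of all transcript clusters without such overlap was not counted for any comparison. At 3 h ZFP36L2 stood 0.42 higher with aminaphtone (interval 0.07 to 0.78, unadjusted p = 0.0209, limma's adjusted p = 0.609). ZFP36 stood 0.07 higher at 3 h (interval -0.39 to 0.53) and 0.13 higher at 6 h (interval -0.33 to 0.59), and ELAVL1 differed from control by at most 0.04 at each time. The median difference over the 10 genes was 0.00 at 1 h, 0.12 at 3 h and 0.09 at 6 h, against -0.10, 0.00 and -0.01 over all transcript clusters tested.

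Whether the difference between treatments changed with time was tested by the interaction of treatment and time. None of the 10 genes passed in limma, with 0.038% of all transcript clusters called. KHDRBS3, ZFP36L1 and ZC3H12A had an unadjusted p under 0.05 (0.00337, 0.00459 and 0.0384, with limma's adjusted p at 0.521, 0.521 and 0.532). How many of all transcript clusters lay under that unadjusted limit was not counted. The signed difference, aminaphtone minus control, went from 0.07 at 1 h to 0.65 at 3 h for KHDRBS3. It changed sign for ZFP36L1 (-0.38 to 0.18) and for ZC3H12A (-0.42 to 0.20). The smaller falls of ZFP36 and ZFP36L1 over time with aminaphtone are thus not shown to differ from those with interleukin-1β alone. Without control 1 h replicate 1, ZFP36L1, ZC3H12A, ZC3H12C and KHDRBS3 passed this test, with 19% of all transcript clusters called in that fit.

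**Figure D5:**
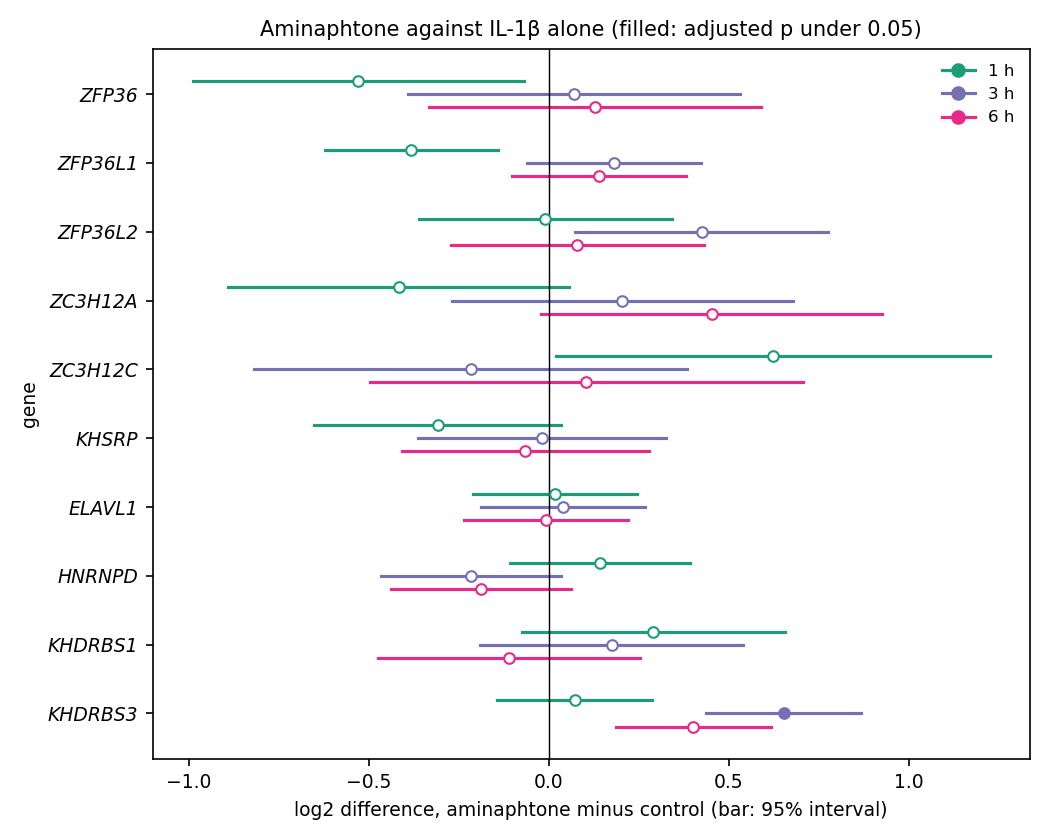
Log2 difference between aminaphtone and control for the 10 genes at 1, 3 and 6 h, from the limma fit over 18 arrays; bars are 95% intervals, and filled points have an adjusted p under 0.05. The filled point is that of KHDRBS3 at 3 h (0.65).

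Other genes with the most similar profiles over the 18 arrays were listed for the 6 members called in any comparison, as a description over arrays that share the same 6 groups. For ZFP36 these were ITPKC, PDK2 and DHRS3 (Pearson r of 0.990, 0.988 and 0.987 among 13804 other genes). For ZFP36L1 they were PAX2, IRF2BPL and RXRA (0.976, 0.970 and 0.970), and for ZFP36L2 ARID1A, IRS2 and HERPUD1 (0.892, 0.876 and 0.831). ZC3H12A was most like EPHA2, PLK3 and FGFR1 (0.949, 0.948 and 0.937), and ZC3H12C most like RASA2, CCNJ and USP53 (0.984, 0.975 and 0.974). KHDRBS3 was most like RAP2B, SLC41A1 and RMC1 (0.936, 0.921 and 0.908).

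The enzymes that carry out decay were read from 3 lists: deadenylation, decapping and the exosome. Over all transcript clusters tested, 26.5% were called from 1 to 6 h with interleukin-1β alone (11.3% up and 15.2% down), and with aminaphtone 6.01% were up and 10.7% down. The 5 deadenylation and 4 exosome genes called with interleukin-1β alone are close to that share and are no result about these lists. Of the 18 deadenylation genes listed, 17 were tested; 3 rose and 2 fell from 1 to 6 h with interleukin-1β alone, and 0 rose and 5 fell with aminaphtone. PAN2, a poly(A) nuclease subunit, fell with interleukin-1β alone (-1.13) and with aminaphtone (-1.04) (limma, adjusted p = 0.000477 and 0.00102). TOB1, which links deadenylase to bound mRNA, fell as well (-0.56 and -0.70, limma, adjusted p = 0.0158 and 0.00525). CNOT8, a catalytic subunit of CCR4-NOT, rose by 0.87 with interleukin-1β alone (limma, adjusted p = 0.0254), but its 1 h controls were widely spread (SD 0.68). Of 16 decapping genes, 3 rose and 4 fell, and with aminaphtone 0 rose and 3 fell. LSM4, a subunit of the ring that binds deadenylated mRNA, fell in both (-0.59 and -0.75, limma, adjusted p = 0.00765 and 0.0018). LSM6 rose by 0.44 with interleukin-1β alone (limma, adjusted p = 0.00698). Of 16 exosome genes, 1 rose and 3 fell, and with aminaphtone 0 rose and 4 fell. The core subunits EXOSC1 and EXOSC5 fell with interleukin-1β alone (-0.60 and -0.75, limma, adjusted p = 0.00198 and 0.00316). They also fell with aminaphtone (-0.60 and -0.70, limma, adjusted p = 0.00235 and 0.00609). EXOSC3 rose by 0.70 with interleukin-1β alone (limma, adjusted p = 0.0045), where its 1 h controls had an SD of 0.394. The median differences from 1 to 6 h with interleukin-1β alone were 0.13, 0.07 and -0.04 for deadenylation, decapping and exosome genes, against -0.01 over all tested. With aminaphtone they were -0.17, -0.15 and -0.12, against 0.02. Without control 1 h replicate 1 the counts from 1 to 6 h with interleukin-1β alone were 7 up and 3 down for deadenylation, 6 and 7 for decapping and 3 and 5 for the exosome, with 44.8% of all transcript clusters called. Without both control 1 h replicates 2 and 3 they were 0 and 3, 0 and 0, and 0 and 1, with 14.8% called over all.

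Among 27 tested of 33 other listed mRNA-binding regulators, 10 rose and 1 fell from 1 to 6 h with interleukin-1β alone, against 11.3% and 15.2% over all tested. Their median difference was 0.46, against -0.01 over all tested. IGF2BP1, which shields bound mRNA from decay, rose by 0.53 (limma, adjusted p = 0.00256), CELF2 by 0.70 (0.00313) and HNRNPAB by 0.46 (0.00341). With aminaphtone, 3 rose and 0 fell, against 6.01% and 10.7% over all tested, with a median of 0.06. IGF2BP1 rose by 0.56 there (limma, adjusted p = 0.00188). Without both control 1 h replicates 2 and 3, the counts with interleukin-1β alone were 2 up and 3 down (5.39% and 9.38% over all tested), and without replicate 1 they were 17 and 2 (21.3% and 23.6%). By 3 h with interleukin-1β alone, CPEB2, a cytoplasmic polyadenylation element binding protein, fell by 1.69 (limma, adjusted p = 0.000489) and RC3H1 (Roquin-1), which binds stem-loops of inflammatory mRNAs, rose by 1.23 (0.0229). In that comparison 2 of the 27 rose and 1 fell, against 15 and 1 without control 1 h replicate 1 (16.7% and 19.5% over all tested) and 1 and 2 without both replicates 2 and 3 (3.34% and 6.66%). Without both replicates RC3H1 stood at 0.32 (limma, adjusted p = 0.535), while CPEB2 still fell (-2.39; 1.14e-05).

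ZFP36 protein is held inactive when MK2, a kinase downstream of p38, phosphorylates it, and the phosphatase DUSP1 switches p38 off. Of 8 genes tested of the 10 listed for this route, 3 rose and 4 fell from 1 to 6 h with interleukin-1β alone, against 11.3% and 15.2% over all tested. With aminaphtone 0 rose and 2 fell, against 6.01% and 10.7%. The medians were -0.32 and -0.05. DUSP1 fell in both (-1.62 and -1.49; limma, adjusted p = 1.05e-05 and 2.53e-05), as did MAPKAPK3, a kinase close to MK2 (-0.96 and -0.81; 0.00054 and 0.00227). PPP2CA, the catalytic subunit of a phosphatase that acts on ZFP36, rose by 0.90 with interleukin-1β alone (limma, adjusted p = 0.00546), but its 1 h controls were widely spread (SD 0.537). MAP2K3, a kinase that activates p38, rose by 1.10 from 1 to 3 h with aminaphtone (0.00682) and fell by 1.24 from 3 to 6 h (0.0442). Without control 1 h replicate 1, the counts from 1 to 6 h with interleukin-1β alone were 3 up and 5 down, against 21.3% and 23.6% over all tested. Leaving out both control 1 h replicates 2 and 3 leaves 1 control array at 1 h. Fewer genes of this list were then called from 1 to 6 h with interleukin-1β alone, and fewer over all tested, than with all arrays.

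Of 26 listed mRNAs of inflammation and early response that carry AU-rich elements, 23 were tested. From 1 to 6 h, 7 rose and 9 fell with interleukin-1β alone, against 11.3% and 15.2% over all tested. With aminaphtone 9 rose and 7 fell, against 6.01% and 10.7%. The medians were -0.07 and 0.10. DUSP1 is in this list too. FOS, an early response transcription factor, fell in both (-2.13 and -3.10; limma, adjusted p = 9.35e-08 and 1.13e-09). IL1B, which encodes interleukin-1β, rose by 2.26 with interleukin-1β alone and by 1.87 with aminaphtone (limma, adjusted p = 1.64e-05 and 0.000115). The chemokine gene CCL2 rose by 0.90 and 1.36 (limma, adjusted p = 0.00113 and 4.2e-05). TNF, an established target of ZFP36, fell by 1.20 from 3 to 6 h with interleukin-1β alone (limma, adjusted p = 0.0434), an interval in which ZFP36 stood at -0.96. Without control 1 h replicate 1 the counts from 1 to 6 h with interleukin-1β alone were 6 up and 10 down, against 21.3% and 23.6% over all tested. Between treatments, FOS was higher with aminaphtone at 1 h by 1.09 (limma, adjusted p = 0.00271) and in the average by 0.41 (0.0306), and IL1B was lower in the average (-0.69; 0.0407). Of the 84 genes tested from the other 5 lists, 0 passed in limma between treatments at any time or in the average; the unadjusted p was under 0.05 for 45 at 1 h, 4 at 3 h, 5 at 6 h and 10 in the average. Over all transcript clusters tested that share was 30.8% at 1 h, 6.5% at 3 h, 3.93% at 6 h and 18.9% in the average. Array signals measure mRNA level, and decay rates were not measured.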

How the data were processed

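Values are the log2 signals that the authors deposited, made with RMA, which corrects background, quantile-normalizes and summarises probes into transcript clusters, in Affymetrix Expression Console, per the submitters' processing notes; versions, build and which arrays were normalized together are not given in the sources used here. Labelling used 100 ng of RNA per the labels' protocols. Of 28869 transcript clusters, 21062 are annotated, 19310 with 1 symbol and 1752 with several. The 15796 (75%) annotated ones with a mean above the 25th percentile (log2 6.193) were tested in limma 3.58.1 (R 4.3.3), with 1 mean per group over 18 arrays (12 residual and 4.814 prior degrees of freedom), two-sided, with Benjamini-Hochberg adjustment over all tested and a threshold of 0.05. The script was tested on simulated data. The number of arrays limits the precision. The labels call the 3 samples of a group independent replicates without saying what was independent, so p-values reflect only how these samples vary, which may be technical.

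Replicate numbers were taken to pair arrays where same-numbered arrays deviated together from their group means: aminaphtone against control at 1 h (correlations 0.746, 0.411 and 0.322) and control at 3 h against 1 h (0.313, 0.359 and 0.258). The labels do not state a pairing. The members and gene lists were chosen with earlier results of these data known. Named were all 10 members and the 3 genes most like each called member. Genes of the lists were drawn from the first 3 by p past the threshold per list and comparison, and not all of those are named. Motifs were chosen after the promoters were looked at. Alternatives were no filter or a stricter one (50th percentile), only the arrays compared, a trended robust variance, median centring, array quality weights, the replicate block and each array left out.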

Additional observations from a re-analysis of the deposited data

How the results depend on the processing

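Of 17 changes called among the 10 genes over all comparisons of 2 groups and the average, 10 kept their direction and stayed past the threshold in every alternative run: ZFP36 and ZFP36L1 from 1 to 3 h and from 1 to 6 h with interleukin-1β alone, ZFP36 from 1 to 3 h and from 1 to 6 h with aminaphtone, ZFP36L1 from 1 to 6 h and KHDRBS3 from 1 to 3 h and from 1 to 6 h with aminaphtone, and KHDRBS3 in the average. Of 78 further comparisons called neither in the main analysis nor with the replicate block, 24 were called under some setting and 34 changed sign under some setting.

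Array quality weights, fitted gene by gene because the default method did not converge, ran from 0.13 (control 1 h replicate 2) to 7.84 (control 1 h replicate 3) and gave the most calls over all transcript clusters in every comparison. With array quality weights 6 members were called at 1 h between treatments (9907 of all 15796 transcript clusters tested, against 14). The counts that follow also have the number over all tested in brackets. Between treatments 2 members were called at 3 h (288), 3 at 6 h (2798), 3 in the average (6769) and 7 in the interaction (6384). Between times 3 were called from 3 to 6 h in controls (2077), 5 from 1 to 3 h with aminaphtone (4795) and 4 from 3 to 6 h with aminaphtone (5054). With the replicate block 3 members were called at 1 h (2465 over all tested) and 0 at 3 h (KHDRBS3, limma, adjusted p = 0.0549). From 3 to 6 h in controls it called 2, ZFP36 and ZC3H12A (limma, adjusted p = 0.0227 and 0.0465), with 114 called over all tested. The replicate numbers do not pair the arrays of the last 2 comparisons, and no other count of members moved by over 1.5 times. From 1 to 3 h in controls, where the numbers were taken to pair, the block called the same 4 members as the main analysis (2292 over all tested, against 2020). With only the arrays compared, 0 members were called at 3 h. From 3 to 6 h in controls 2 were called (ZFP36 and ZC3H12A, limma, adjusted p = 0.04 and 0.0389), with 166 called over all tested. With the trended robust variance, 0 were called at 3 h (KHDRBS3, 0.084).

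Leaving out each array in turn, members called ranged from 0 to 6 at 1 h between treatments (6 to 8516 over all tested). The range was 0 to 1 at 3 h (0 to 48 over all tested) and 0 to 4 in the interaction (3 to 2995). From 3 to 6 h it was 0 to 2 in controls (16 to 309) and 0 to 1 with aminaphtone (4 to 260). ZFP36 and ZC3H12A were both called from 3 to 6 h in controls without control 1 h replicate 1 (limma, adjusted p = 0.0255 and 0.0239), without control 1 h replicate 2 (0.0268 and 0.0366) and without control 3 h replicate 1 (0.0424 and 0.0424). Over all tested, 235, 309 and 163 transcript clusters were called in these fits in turn, against 81 in the main analysis. An alternative chosen after seeing the data left out both control 1 h replicates 2 and 3, which leaves 1 control array at 1 h. Fewer members, and fewer transcript clusters over all tested, were then called in controls from 1 to 3 h and from 1 to 6 h. More of both were called from 3 to 6 h under either treatment. ZC3H12A at 1 h between treatments turned to 0.0173. With each array centred on its median the rise of ZC3H12C from 1 to 6 h with aminaphtone was 0.84 (adjusted p = 0.0713), and with no filter on low values its adjusted p was 0.0539. The cause of these shifts was not tested. Another transcript cluster per gene could not be tried, since each member has 1, and only the arrays compared could not be applied to the average and the interaction, which use all arrays.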
